A study of Homo sapiens with 6 samples.

Results

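RNA polymerase II (Pol II), the general transcription factors that place it at a promoter, and Mediator, the coactivator that links it to enhancer-bound factors, were examined as 1 group of genes in OVCAR3 cells. The members were the loci of the gene table whose symbol names a Pol II subunit (POLR2A to POLR2L), a Mediator subunit (MED), a TBP-associated factor (TAF), a subunit of TFIIA, TFIIB, TFIIE, TFIIF or TFIIH with a GTF2 symbol, or the TATA-binding protein TBP, including paralogs whose symbol ends in L. There were 74 such loci of 47577 in the table. OVCAR3 is an established line of serous carcinoma cells from the ovary. THZ531 covalently inhibits CDK12 and CDK13, kinases that phosphorylate the tail of Pol II. PolyA plus RNA was sequenced from 3 libraries of cells given DMSO, the solvent, and from 3 libraries of cells given 200 nM THZ531, all for 6 h; no genetic change was made in either group. The labels call the libraries of a group biological repeats, and all of them come from 1 cell line. The sample titles and the design text name THZ531, whereas the treatment field of the labels names THZ1, another covalent CDK inhibitor, at the same 200 nM.

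Transcription by Pol II starts when TFIID, built from TBP and the TAFs, marks the promoter and TFIIA and TFIIB follow, after which Pol II arrives with TFIIF and is completed by TFIIE and TFIIH. TFIIH opens the DNA with its helicases and phosphorylates the carboxy-terminal domain (CTD) of POLR2A through CDK7. Mediator consists of a head, a middle and a tail held together by MED14, and a separable kinase module with CDK8 or CDK19 that limits its contact with Pol II. CDK12 and CDK13 act later, on serine 2 of the CTD heptads, during elongation.

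The values are read counts on a gene divided by a size factor of the library, so they compare 1 gene between libraries but not different genes unless divided by transcript length. The libraries held 53054048 to 70986130 reads on genes. Of the serous epithelial markers PAX8, WT1, MUC16, MSLN, EPCAM, CDH1, KRT7, KRT8 and KRT18, all 9 were detected, with summed values of 441935 to 453034 in DMSO and 562895 to 575442 in THZ531. These sums are mostly KRT7, KRT8 and KRT18 (means of 130310, 153783 and 114489 in DMSO). PAX8 fell to 1241 in THZ531 from 11272 in DMSO (adjusted p = 4.6e-15 in limma, log2 fold change −3.18). MUC16 fell to 3334 from 4598 (adjusted p = 1.3e-06 in limma, log2 fold change −0.46). WT1 was at −0.17 (adjusted p = 0.19 in limma), while MSLN, EPCAM, CDH1, KRT7, KRT8 and KRT18 were at 0.08 to 0.58. The 8 markers of leukocytes, endothelium, fibroblasts and hepatocytes summed to 2149 to 2507 in DMSO and 3773 to 4039 in THZ531, with CD3E and ALB at 0 in every library. COL1A1 rose from 996 to 2190, and VWF and COL3A1 rose as well; the part of these markers in the results below was not tested. In bulk RNA, fewer cells of a type and less RNA per cell cannot be told apart.

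The first sequence shown is from the CTD of POLR2A, on which CDK12 and CDK13 act and whose phosphorylation was not measured here. In the reference genome (hg38) its coding sequence, in a transcript that GENCODE marks as touched by an error of the reference, has 5910 nt for 1970 residues, and a script found 21 heptads with the consensus sequence of the CTD between residues 1615 and 1803, of which 15 follow each other without a break. The first 5 heptads of that run, at chr17:7513170-7513274 on the plus strand, are shown with the codons of serine 2 in capitals.
POLR2A CTD, 5 heptads: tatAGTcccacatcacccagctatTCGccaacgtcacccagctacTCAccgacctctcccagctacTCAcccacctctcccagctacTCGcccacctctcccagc

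The other 3 sequences are shown because each lies in an intron of a member gene, inside or at the end of a locus without a gene symbol whose reads rose with THZ531. Each window holds an AATAAA hexamer in capitals, the core of most polyadenylation signals, with 20 nt on either side, read on the strand of the host gene in hg38. The one in MED13 is at chr17:62003694-62003739 (minus strand), the one in GTF2H3 at chr12:123650443-123650488 (plus strand) and the one in MED27 at chr9:132012738-132012783 (minus strand).
MED13 intron 9: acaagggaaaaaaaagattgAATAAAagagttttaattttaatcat
GTF2H3 intron 4: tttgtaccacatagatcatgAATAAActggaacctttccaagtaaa
MED27 intron 3: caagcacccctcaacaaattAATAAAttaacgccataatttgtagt

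A locus was tested when its value was at least 10 in at least 3 libraries, which held for 72 of the 74 members. A locus counted as increased or decreased when limma gave it a change of 1.5-fold or more and a p-value, before adjustment, of 0.05 or less, which are the thresholds of the study. By this rule 11 members (15.3%) increased and 11 (15.3%) decreased, while 50 were not called. Over all 15278 tested loci with a symbol the shares were 13.3% increased and 23.7% decreased. At an adjusted p of at most 0.05 and any fold change, 36 of the 72 tested members were higher, 23 lower and 13 neither. Over all 15278 tested loci with a symbol, 5318 (34.8%) were higher and 5400 (35.3%) lower. The median log2 fold change of the members was 0.11, against −0.02 over the loci with a symbol, and the range was −1.60 to 1.33. The sign of this median depends on the scaling, since it was −0.13 when the libraries were set to the same total and −0.38 when they were set to the ribosomal protein gene RPL34. Those scalings moved all loci by −0.24 and −0.49 on the log2 scale, respectively, and setting the upper quartiles equal moved them by −0.02. All 11 decreased members kept their call under the 3 scalings. Of the 11 increased members, 5 kept it at the same total (POLR2A, MED26, MED18, TAF5L and MED12L) and 4 with RPL34, where MED12L was at 0.58. Increased and decreased genes stood side by side in TFIID and in the head, middle and tail of Mediator, as the plot of fold changes by complex shows. The counts within single complexes given below describe few genes each, are to be read against the shares over all loci, and set no complex apart.

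**Figure D1:**
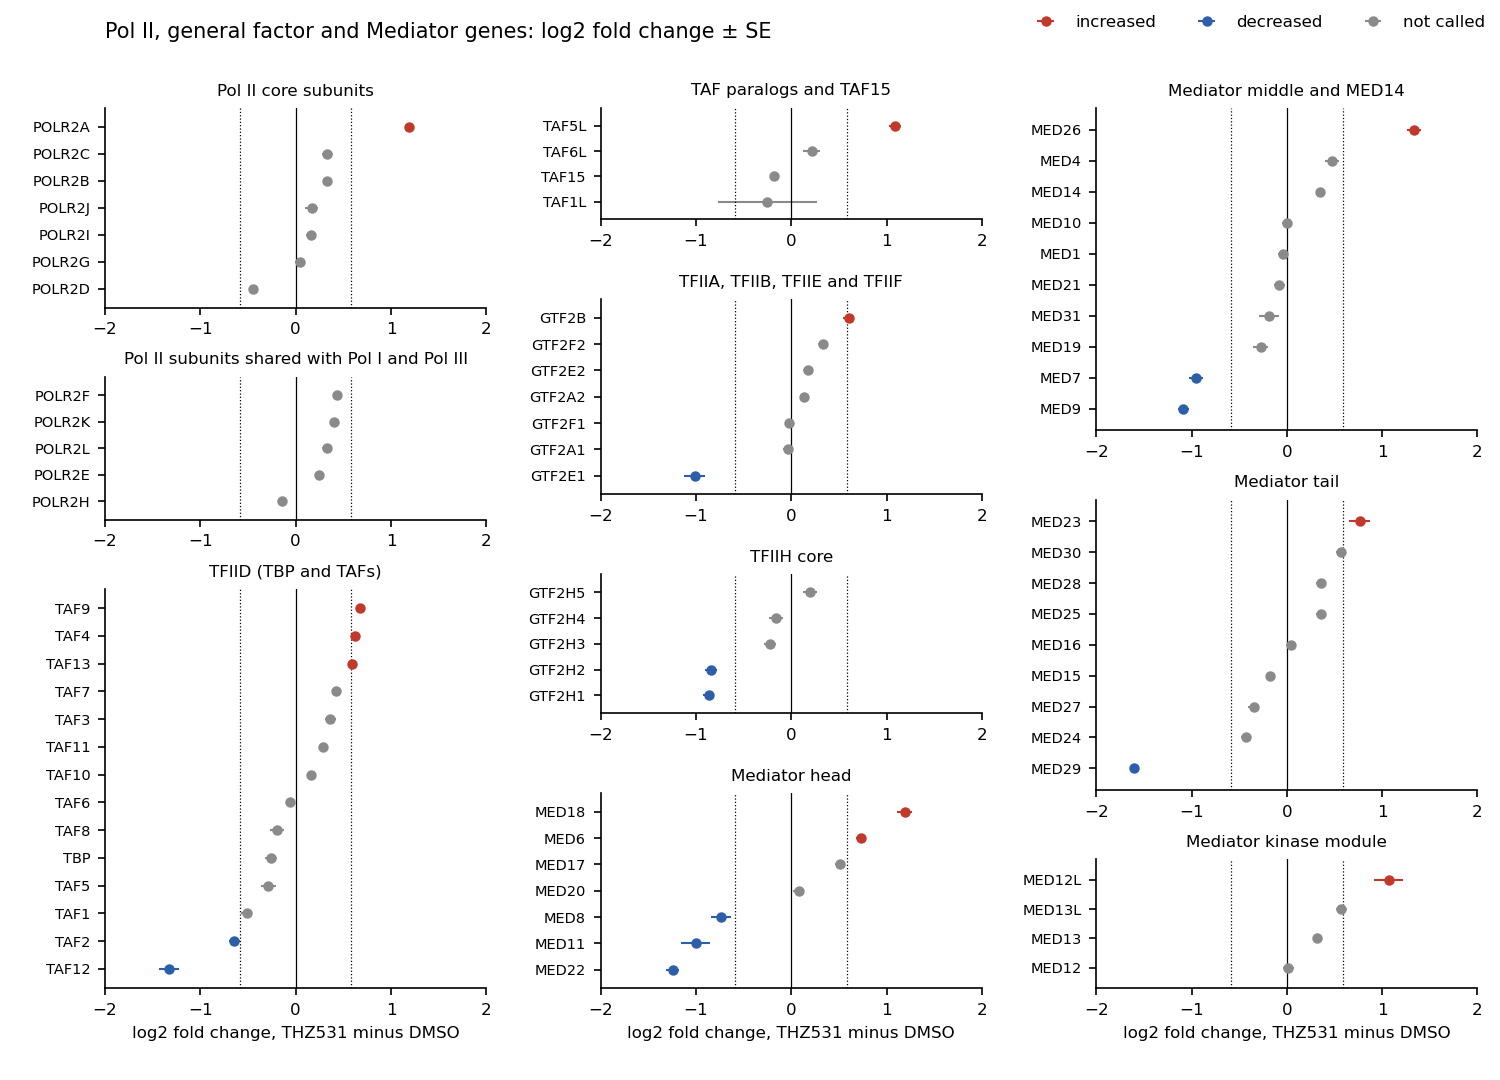
Log2 fold change (THZ531 minus DMSO, x axis) with its standard error for the 72 tested members, 1 panel per complex or module; red, increased; blue, decreased; grey, not called; dotted lines, a fold change of 1.5. Each of the 3 Mediator modules head, middle and tail holds points past both dotted lines, from MED29 at −1.60 to MED26 at 1.33, as does TFIID; libraries set to RPL34 would shift the points by about −0.49.

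POLR2A, the catalytic subunit that carries the CTD (chromosome 17, 7484356 to 7514616), rose more than any other Pol II subunit. Its values were 12813, 12508 and 12169 in DMSO and 28198, 28853 and 28252 in THZ531. All THZ531 libraries were above all DMSO libraries, and the means of 12497 ± 322 and 28434 ± 363 (SD, n = 3) lay far outside the spread within either group. The log2 fold change was 1.19 (SE 0.03, adjusted p = 1.4e-13, limma). It remained called at 0.94 with equal totals and at 0.69 with RPL34.

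The other 6 core subunits did not pass the fold threshold. POLR2B, which forms the other side of the active centre, had 13877, 13206 and 13191 in DMSO and 17149, 16811 and 16717 in THZ531 (log2 fold change 0.33, adjusted p = 3.6e-07, −0.16 with RPL34). POLR2C, a scaffold of the assembly, was at 0.33 as well, and POLR2D, which with POLR2G forms the stalk, was at −0.44. POLR2G, POLR2I and POLR2J lay between 0.04 and 0.17. The value of POLR2J is uncertain, because reads may be split between it and its near-identical copies. POLR2J2 had 2498 in DMSO and 3196 in THZ531, and POLR2J3 had 3196 in DMSO and 3224 in THZ531. The 5 subunits shared with Pol I and Pol III (POLR2E, POLR2F, POLR2H, POLR2K and POLR2L) were not called either, with log2 fold changes of −0.14 for POLR2H to 0.44 for POLR2F, the latter at −0.06 with RPL34. The POLR2F locus spans 145876 bp, against 15614 bp for its reference transcript. It overlaps other named genes, among them PICK1 and SOX10, and how shared reads were assigned is not known. Per kb of transcript, POLR2A was below POLR2B in DMSO (1980 against 3547 units), while in THZ531 the means (4505 and 4463 units) lay within the spread of the libraries, whose order varied.

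**Figure D2:**
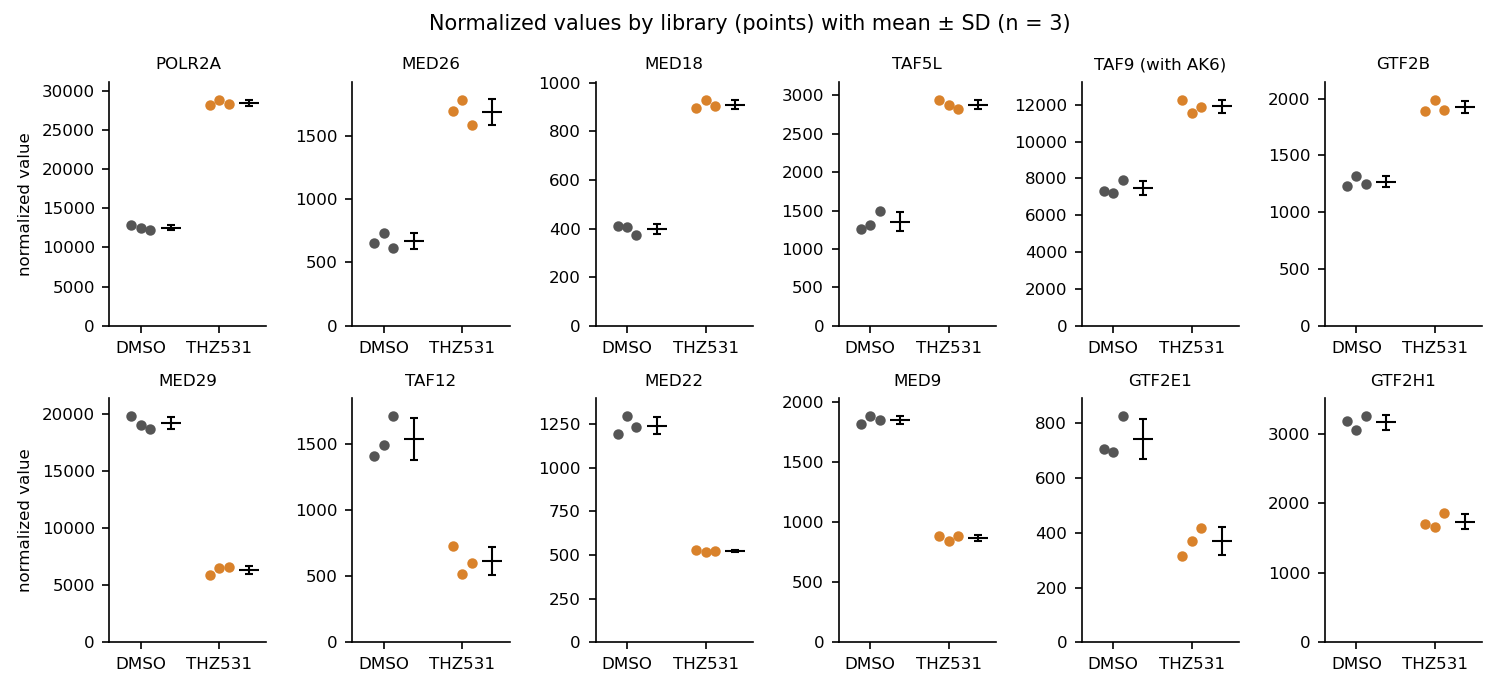
Normalized values (y axis, linear, from 0) of 12 called members in each DMSO and THZ531 library, with mean ± SD (n = 3) beside the points; the top row holds 6 increased genes and the bottom row 6 decreased ones. In none of the 12 panels do the 2 groups overlap. The 12 genes were picked from those already called, so this is no separate result. The groups of TBP, which was not called, do not overlap either, and the share of such loci over all genes was not computed. POLR2A goes from 12497 ± 322 to 28434 ± 363.

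In TFIID, 3 of 14 genes increased and 2 decreased, against 13.3% and 23.7% over all loci with a symbol. TAF12, a histone-fold subunit that pairs with TAF4 (chromosome 1, 28602850 to 28643086), had 1408, 1495 and 1714 in DMSO and 728, 515 and 604 in THZ531. The groups were far apart, with the highest THZ531 value well below the lowest DMSO value, and the log2 fold change was −1.33 (SE 0.11, adjusted p = 1.5e-08). TAF4 itself rose from 2941, 3102 and 2979 to 4538, 4825 and 4553 (log2 fold change 0.62, SE 0.05, adjusted p = 4.7e-09), a call lost at the same total (0.38) and with RPL34 (0.13).
TAF9, the histone-fold partner of TAF6, is joined in the table with AK6, an adenylate kinase gene at the same place, so that its rise from 7297, 7207 and 7893 to 12274, 11558 and 11877 (log2 fold change 0.67, adjusted p = 8.4e-10) cannot be assigned to TAF9 alone. This call was lost at the same total (0.43) and with RPL34 (0.18), and the locus also overlaps RAD17. TAF13, the partner of TAF11, rose by 0.59 (SE 0.05), just over the threshold, and its call was lost at the same total (0.35), at the upper quartile (0.57), with RPL34 (0.10), in edgeR (0.57) and without DMSO replicate 1 (0.56) or THZ531 replicate 1 (0.55). TAF2, which contacts the core promoter, fell from 2629 ± 87.9 to 1686 ± 111 (log2 fold change −0.64, SE 0.06, adjusted p = 5.5e-08).

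Other TFIID subunits were not called. TBP, which bends the promoter DNA, had 1140, 1093 and 1183 in DMSO and 946, 983 and 927 in THZ531, groups that do not overlap, with a log2 fold change of −0.26 (SE 0.07, adjusted p = 0.0024). TAF1, the largest subunit and the one that reads acetylated histones, was just inside the threshold at −0.52 (SE 0.06, adjusted p = 1.5e-06), and past it at −0.76 with equal totals. TAF6 showed the smallest difference, with 4208, 4179 and 4256 in DMSO and 3853, 4088 and 4180 in THZ531 (log2 fold change −0.06, adjusted p = 0.23), groups that overlap.

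Among the TAF paralogs, TAF5L, a subunit of the SAGA coactivator, had 1257, 1313 and 1495 in DMSO and 2945, 2871 and 2821 in THZ531. The groups were well separated, with a log2 fold change of 1.09 (SE 0.06, adjusted p = 3.6e-10). Its counterpart within TFIID, TAF5, was at −0.29 (SE 0.08, adjusted p = 0.0035). TAF6L, the SAGA counterpart of TAF6, was at 0.21 with overlapping groups, and TAF15, an RNA-binding protein, at −0.18. TAF1L, a retrogene expressed mainly in the testis, was at 14.4 to 26.0 in DMSO and 6.83 to 27.7 in THZ531. TAF7L, another testis paralog, did not pass the minimum, with 4.76, 1.86 and 7.98 in DMSO and 0 in the 3 THZ531 libraries. The germ-cell TFIIA gene GTF2A1L was also below it, with 4.76, 0 and 1.60 in DMSO and 0 in THZ531.

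GTF2B, which encodes TFIIB and bridges TBP and Pol II, rose from 1235, 1322 and 1246 to 1893, 1992 and 1899. No value was shared between the groups, and the log2 fold change was 0.60 (SE 0.06, adjusted p = 1.0e-07), but the call was lost in edgeR (0.58), at the upper quartile (0.58), at the same total (0.36), with RPL34 (0.11) and without THZ531 replicate 2 (0.58). GTF2E1, the large subunit of TFIIE, which brings in TFIIH (chromosome 3, 120742744 to 120783069), fell from 705, 695 and 826 to 316, 372 and 419 (log2 fold change −1.01, SE 0.11, adjusted p = 5.9e-07). Its small partner GTF2E2 was at 0.17 (adjusted p = 0.004). GTF2F1, the large subunit of TFIIF, gave the smallest difference of these factors, at −0.02 with overlapping groups.

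In the core of TFIIH, 2 of 5 genes decreased and none increased, against 23.7% and 13.3% over all loci with a symbol. GTF2H1 (p62), which anchors other factors to the complex, fell from 3188, 3054 and 3258 to 1698, 1655 and 1860, with a log2 fold change of −0.87 (SE 0.06, adjusted p = 1.1e-09). GTF2H2 (p44), the regulator of the helicase ERCC2, fell from 1981, 1826 and 1867 to 1097, 1023 and 1039, with a log2 fold change of −0.84 (SE 0.06, adjusted p = 3.9e-09). It has near-identical copies on chromosome 5 that may share its reads, and these were lower too, GTF2H2C at 1946 in DMSO and 1270 in THZ531 and GTF2H2B at 357 and 184. GTF2H2 also overlaps the locus of SMN1 and SMN2, with the assignment of shared reads not known. GTF2H4 was at −0.16 (adjusted p = 0.067), the smallest difference in this group.

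Mediator has 7 members in the head, 10 in the middle with MED14, 9 in the tail and 4 in the kinase module, all tested. It held 5 of the 11 increased members and 6 of the 11 decreased ones. These counts are to be read against its size and the 13.3% and 23.7% over all loci with a symbol. MED26, which docks elongation factors onto Mediator (chromosome 19, 16574907 to 16628204), had the largest rise of all members. Its values went from 656, 735 and 617 in DMSO to 1694, 1784 and 1584 in THZ531. The lowest THZ531 value was above the highest DMSO value by more than the range of either group, and the log2 fold change was 1.33 (SE 0.08, adjusted p = 3.2e-10). At the other end of the members stood MED29, a subunit at the upper tail (chromosome 19, 39391311 to 39400641). It was among the most abundant members in DMSO at 5340 units per kb of transcript, and went from 19782, 19044 and 18687 to 5906, 6471 and 6562. The 2 groups lay far apart, with a log2 fold change of −1.60 (SE 0.04, adjusted p = 9.5e-14).

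In the head, which contacts Pol II, 2 genes increased and 3 decreased of 7, against 13.3% and 23.7% over all loci with a symbol. MED18 (chromosome 1, 28329038 to 28335966) rose from 412, 408 and 376 to 897, 931 and 903 (log2 fold change 1.19, SE 0.08, adjusted p = 2.5e-09), with no overlap. MED6, one of its conserved subunits, rose from 1783 ± 122 to 2961 ± 45.1 (log2 fold change 0.73, SE 0.06), and was at 0.49 at the same total and 0.24 with RPL34. MED22 (chromosome 9, 133338323 to 133348131) fell from 1196, 1296 and 1234 to 529, 517 and 525 (log2 fold change −1.24, SE 0.07, adjusted p = 3.2e-10). Its THZ531 libraries lay close together and far below DMSO. MED11, the partner of MED22 in a heterodimer, fell 1.98-fold, from 477 ± 50.6 to 241 ± 53.8, and it overlaps CXCL16, with the assignment of shared reads not known, and MED8 fell from 1349 ± 75.4 to 819 ± 159 (log2 fold change −0.74, SE 0.11). MED17, the scaffold of the head, was inside the fold threshold at 0.51, and MED20, the partner of MED18, had overlapping groups at 0.08.

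In the middle module, MED9 fell from 1817, 1884 and 1854 to 884, 842 and 887 (log2 fold change −1.09, SE 0.06, adjusted p = 1.8e-10), and MED7 fell from 1061, 1096 and 1018 to 538, 567 and 538 (log2 fold change −0.95, SE 0.07, adjusted p = 1.1e-08). In both genes every THZ531 value was lower than every DMSO value. MED1, the subunit that binds nuclear receptors, had 2013, 1912 and 2013 in DMSO and 1923, 1923 and 1909 in THZ531, overlapping groups with a log2 fold change of −0.04 (SE 0.05, adjusted p = 0.46). MED14, the backbone of the complex, was at 0.35 (SE 0.04, adjusted p = 1.4e-06) and at −0.14 with RPL34. MED10 had the smallest difference of all members, −0.0037 on the log2 scale (SE 0.05).

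In the tail, which receives activators, MED23 joined MED29 past the threshold, with 377, 347 and 306 in DMSO and 601, 623 and 526 in THZ531 (log2 fold change 0.76, SE 0.11, adjusted p = 9.8e-06). Its groups did not overlap, but its call was lost at the same total (0.52) and with RPL34 (0.27), and it overlaps ARG1; how reads in an overlap were assigned is not given in the sources used here. MED30 was just short of the threshold at 0.57. MED16 gave the smallest difference of the tail at 0.04, with overlapping groups.

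The kinase module had 1 increased gene of 4, against 13.3% over all loci with a symbol. MED12L, a paralog of MED12, was expressed at low level, with 159, 124 and 152 in DMSO and 278, 354 and 284 in THZ531 (log2 fold change 1.07, SE 0.15, adjusted p = 1.1e-05). These groups do not overlap, but the locus of 350990 bp spans 6 other named genes, among them P2RY12 and IGSF10, and how reads in the overlaps were assigned is not known. MED12, which activates the kinase, was the same in both groups within the spread, with 2152, 2109 and 1992 in DMSO and 2011, 2213 and 2098 in THZ531 (log2 fold change 0.02, SE 0.06, adjusted p = 0.81). MED13, the link of the module to Mediator, was at 0.32 (SE 0.05, adjusted p = 2.2e-05) and at −0.17 with RPL34, and its paralog MED13L was just below the threshold at 0.57.

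The enzymes that work with these complexes, and relatives that the symbol rule leaves out, were followed as a list of 32 other genes, all of them tested. In this list 4 genes (12.5%) increased and 6 (18.8%) decreased, against 13.3% and 23.7% over all loci with a symbol. The kinase subcomplex of TFIIH had CCNH, the cyclin of CDK7, at 1419, 1196 and 1277 in DMSO and 2058, 2154 and 2123 in THZ531, a rise of 0.71 on the log2 scale (SE 0.06, adjusted p = 7.4e-08) that was below the threshold at the same total (0.46) and with RPL34 (0.21). CDK7 itself was at 0.50 (SE 0.04) and the assembly factor MNAT1 at 0.39 (SE 0.06, −0.10 with RPL34), neither of them past the fold threshold. The helicases ERCC3 and ERCC2 were at −0.41 (SE 0.05) and −0.14 (SE 0.10).

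The kinases of Mediator were split. CDK19 had 268, 295 and 348 in DMSO and 108, 108 and 120 in THZ531, a fall with no overlap (log2 fold change −1.42, SE 0.15, adjusted p = 4.2e-07). Its paralog CDK8 had 819, 818 and 946 in DMSO and 1163, 1053 and 1129 in THZ531 (log2 fold change 0.37, SE 0.08, −0.12 with RPL34), and CCNC, the cyclin of both, was at 0.32. Among TBP cofactors and relatives, TAF4B, a paralog of TAF4, rose from 300 ± 38.8 to 609 ± 71.2 (log2 fold change 1.02). DR1, which represses TBP as part of NC2, rose from 8065 ± 816 to 15881 ± 822 (log2 fold change 0.98), and TBPL1, a TBP-like factor, fell from 751 ± 40.3 to 425 ± 24.6 (log2 fold change −0.82). With RPL34, TAF4B and DR1 were at 0.53 and 0.49 and no longer called. In the SAGA coactivator SGF29, a reader of methylated histone H3, fell from 403 ± 60.3 to 121 ± 15.4 (log2 fold change −1.72), SUPT20H by 0.74 and SUPT7L by 0.65, while the adaptor TADA1 rose by 0.62, a call lost at the same total (0.37), with RPL34 (0.12) and without THZ531 replicate 1 (0.55). RPAP1, which takes part in the assembly of Pol II before its import into the nucleus, fell from 2888, 3118 and 2969 to 1130, 1142 and 1046 (log2 fold change −1.43, SE 0.06, adjusted p = 5.5e-12), with no overlap.

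**Figure D3:**
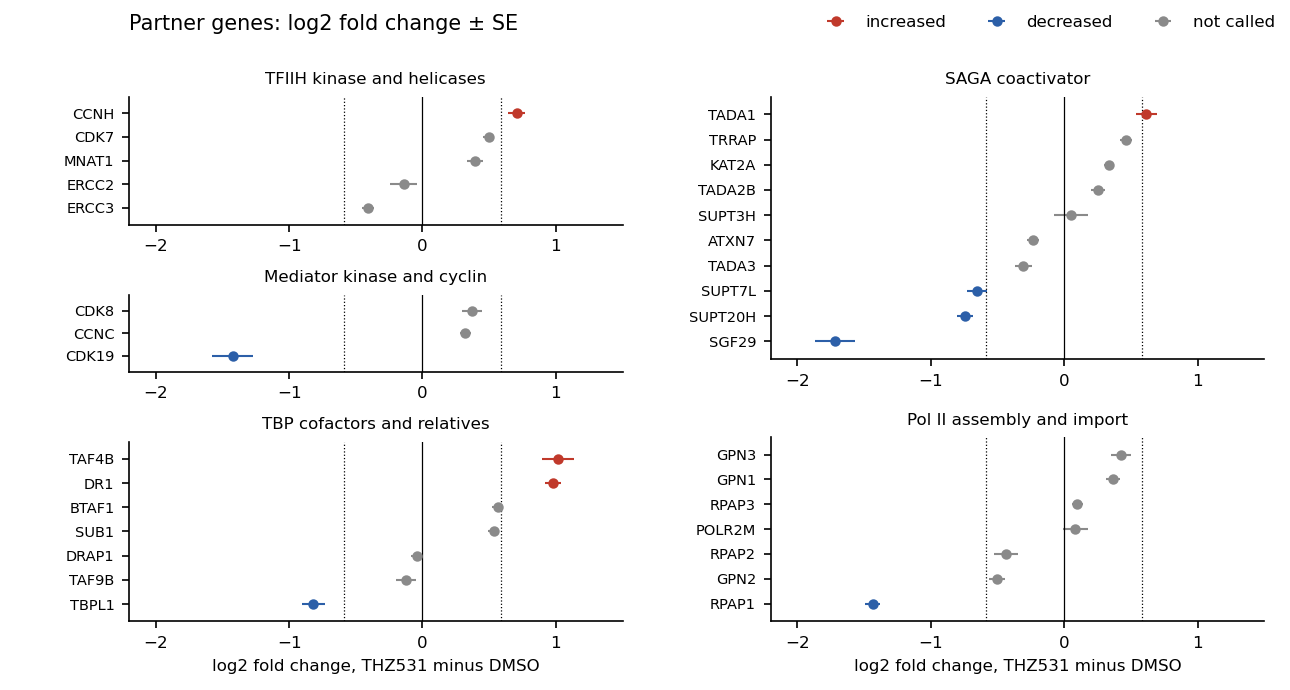
Log2 fold change (THZ531 minus DMSO, x axis) with its standard error for the 32 other genes of the machinery, by group; red, increased; blue, decreased; grey, not called; dotted lines, a fold change of 1.5. CDK19 lies at −1.42 and its paralog CDK8 at 0.37; scaling to RPL34 would shift the points by about −0.49, CDK8 to −0.12.

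A ratio of 2 genes within a library does not depend on how the libraries are scaled, except through the pseudocount of 1, which matters for genes with few reads. For 12 pairs of paralogs or partner subunits, chosen after the values were seen, the log2 ratio was computed in each library and compared between the groups with an exact two-sided permutation test, for which 3 against 3 libraries cannot give a p below 0.10. In 10 of the 12 pairs the groups did not overlap, and the test gave this smallest p. After Benjamini-Hochberg adjustment over the 12 pairs it was 0.12, so none passes 0.05. Any pair whose groups do not overlap gets this p. The share of such pairs among other genes was not computed, so the count sets these pairs apart from no others. CDK8 over CDK19 had ratios of 1.61, 1.47 and 1.44 in DMSO and 3.41, 3.27 and 3.23 in THZ531, a change of 1.80 (SE 0.08), the largest of the 12. TAF5 over TAF5L went from −0.11, −0.12 and −0.20 to −1.52, −1.67 and −1.38, a change of −1.38 (SE 0.09). GTF2E1 over GTF2E2, the 2 subunits of TFIIE, changed by −1.19 (SE 0.12) and MED12 over MED12L by −1.05 (SE 0.14). TAF9 over TAF9B changed by 0.80 and TBP over TBPL1 by 0.56, while TAF4 over TAF4B, GTF2F1 over GTF2F2, MED13 over MED13L and GTF2A1 over GTF2A2 changed by −0.39 to −0.17. The groups overlapped for TAF6 over TAF6L (change −0.28, exact permutation p = 0.20) and TAF1 over TAF1L (change −0.27, exact permutation p = 0.70). The change of TAF1 over TAF1L was −0.24 with a pseudocount of 0.1 and −0.39 with 10.

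Gene structure was taken from GENCODE v44, in which all 74 members were found at the coordinates of the table. The 11 increased genes spanned 32989 bp in the median, the 11 decreased ones 16222 bp and the 50 genes without a call 19036 bp, with ranges of 4778 to 350990 bp and 2180 to 102068 bp in the first 2 sets. They had a median of 7, 5 and 8 exons. Over the 72 tested members, which share the libraries, the rank correlation of the log2 fold change was 0.11 with the span, 0.03 with the number of exons, 0.09 with the length of the first intron, 0.06 with that of the transcript and −0.02 with the DMSO level per kb, all of them weak. Short and long genes occurred on both sides: MED29 fell with a span of 9264 bp and TAF2 with 102068 bp, and MED18 rose with 6926 bp and TAF4 with 91084 bp.

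**Figure D4:**
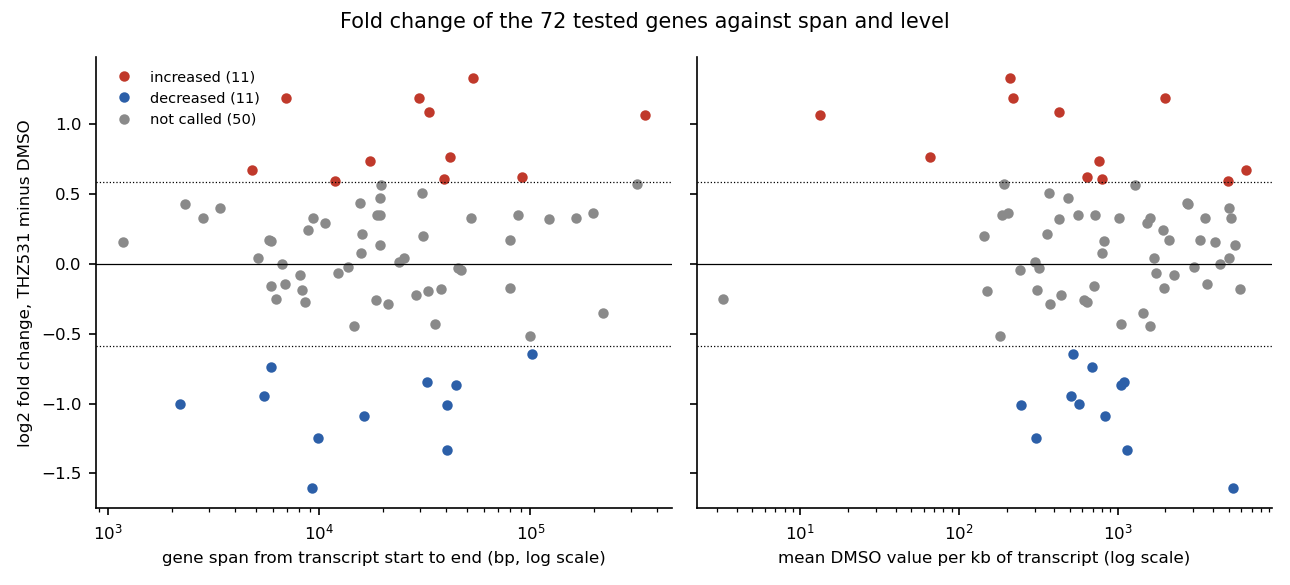
Log2 fold change of the 72 tested members (y axis) against the span of the gene in bp (left, log scale) and the mean DMSO value per kb of transcript (right, log scale); red, increased (11); blue, decreased (11); grey, not called (50); dotted lines, a fold change of 1.5. The rank correlations are 0.11 and −0.02. On the right, the blue points other than MED29 lie between GTF2E1 at 247 and TAF12 at 1153 units per kb, with MED29 at 5340 units per kb apart from them.

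The table also lists loci without a symbol, and 22 of them lie wholly inside a member. Of these, 4 were at 0 in all 6 libraries, 6 passed the minimum for testing and the remainder had reads but stayed below it. Among those tested 3 increased and 2 decreased, where over all 2290 tested loci without a symbol 31.1% increased and 25.3% decreased. The table gives no strand for them, and whether a read in such a locus was also counted for the host is not given in the sources used here.

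The locus inside MED13 lies in intron 9 (chr17:62003700-62007518) and begins 3032 nt after the 5′ splice site. It had 50.8, 81.7 and 89.4 in DMSO and 1236, 1372 and 1077 in THZ531. All THZ531 values were more than an order of magnitude higher, with a log2 fold change of 4.07 (SE 0.18, adjusted p = 1.2e-11). Per kb of span the locus went from 19.4 to 322 units. Per kb of transcript, which is a different length, MED13 had 426 units in DMSO and 531 in THZ531. MED13 itself went from 4455 ± 311 to 5552 ± 71.0. The AATAAA hexamer printed above for MED13 ends 14 nt before the locus does, and GENCODE v44 has a transcript model of the class TEC, which awaits experimental proof, with the same start and end on the strand of MED13.

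Inside GTF2H3 the locus lies in intron 4 (chr12:123648529-123650485), 403 nt after the 5′ splice site. It rose from 15.9, 32.5 and 12.8 to 130, 124 and 139, groups without overlap (log2 fold change 2.73, SE 0.33, adjusted p = 1.6e-06), while GTF2H3 was at −0.23 (SE 0.06). Its hexamer ends 17 nt before the end of the locus, where a TEC model of GENCODE on the strand of GTF2H3 ends at the same base. In MED27 the locus begins 139 nt into intron 3 (chr9:132011965-132014198), and its hexamer is 793 nt from the end. There the values were 3.18, 0 and 2.39 in DMSO and 79.4, 53.4 and 46.6 in THZ531. With so few reads in DMSO the log2 fold change of 4.61 (SE 0.61, adjusted p = 5.1e-06) rests on the pseudocount, and was 5.96 with 0.1 and 2.54 with 10. MED27 was at −0.35 (SE 0.05). The hexamer was searched on the host's strand, and 79.3% of the 4023 loci without a symbol that span 1957 to 5367 bp hold it on the plus strand, so that its presence is common at this length.

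Both loci that fell were in introns as well. The locus in intron 7 of TAF15 (chr17:35824777-35830143) went from 133, 178 and 141 to 36.5, 46.6 and 39.8 (log2 fold change −1.85, SE 0.22, adjusted p = 1.9e-06), and the one in intron 1 of MED26 (chr19:16587261-16589409) from 23.8, 12.1 and 17.6 to 2.52, 2.27 and 9.10 (log2 fold change −1.90, SE 0.63, adjusted p = 0.015). In both the groups did not overlap, and MED26 itself rose. The fall of the MED26 locus rests on few reads and was −0.94 with a pseudocount of 10 and −1.67 without DMSO replicate 1, where the adjusted p was 0.067. On the strand of the host, the TAF15 locus holds 6 AATAAA hexamers, the last of which ends 1108 nt before the locus does, and the MED26 locus holds 0, against 3 in the locus of MED13, 1 in that of GTF2H3 and 2 in that of MED27. GENCODE v44 places a long non-coding RNA on the strand opposite to TAF15 and a TEC model on the strand opposite to MED26 over these loci, although other models on the strand of MED26 also cover the latter. The other tested locus, which overlaps an exon of TAF6L and the gene TMEM223, was not called (log2 fold change −0.31, SE 0.17, adjusted p = 0.13).

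**Figure D5:**
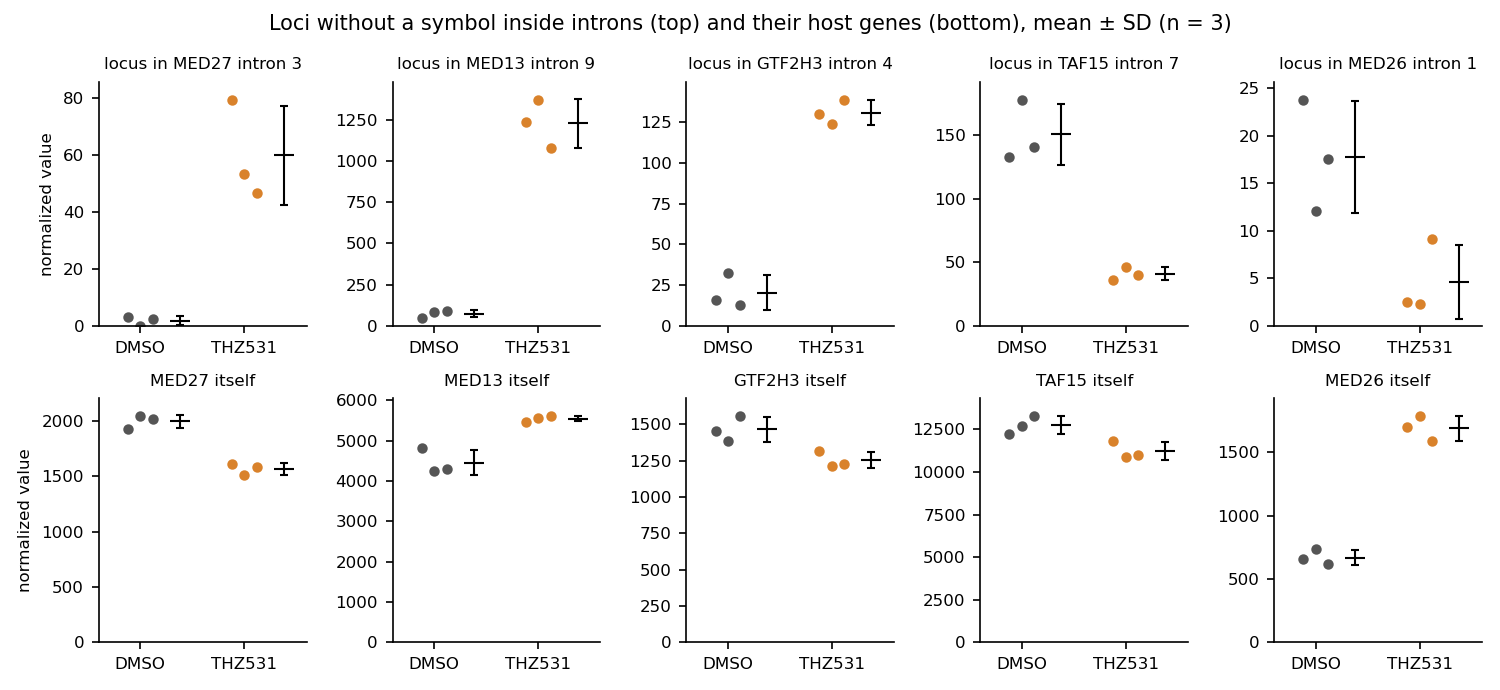
Normalized values (y axis, linear, from 0) in each library for the 5 called loci without a symbol inside introns (top row) and for their host genes (bottom row), with mean ± SD (n = 3). The MED13 locus goes from 73.9 to 1228 while MED13 goes from 4455 to 5552, and the MED26 locus falls while MED26 rises from 669 to 1687.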

How the data were processed

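PolyA plus RNA of OVCAR3 cells was sequenced from 3 DMSO and 3 THZ531 libraries, grouped by the sample labels. The authors mapped paired-end reads to hg38 with STAR (version 2.7.5a per the labels), counted them on FAST DB genes with featureCounts and normalized the counts with DESeq2. The deposited values, a signal of 0 or more, are those counts after division by 1 factor for each library. They are not corrected for gene length, and every fold change depends on the size factors. Dividing by the smallest step of a library gave whole reads for 100% of its values (tolerance 0.1 reads), so read counts were recovered. Whether strand was used in counting is not given in the sources used here. Every column was used.

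Values were compared as log2(value + 1) with limma 3.58.1 (trended variance, no covariate) in R 4.3.3 over the 17568 loci that reached 10 in 3 or more libraries, and p-values were adjusted by the Benjamini-Hochberg method over all of them. Fold changes of weakly expressed loci are understated on this scale. The script was tested on simulated data. Structures, coding sequence and introns came from GENCODE v44 and hg38, with the MANE Select transcript for 73 members and the Ensembl canonical one for POLR2A. Promoters were not analysed. Alternatives were pseudocounts of 0.1 and 10, no minimum and a minimum of 50, 3 other scalings, a replicate block, calls by adjusted p or at 2-fold, edgeR 4.0.16 and DESeq2 1.42.0 on the recovered reads, and leaving out each library. Named genes were those with a central role (POLR2A, POLR2B, TBP, TAF1, GTF2B, MED1, MED12, MED13, MED14, MED26, the TFIIH and Mediator kinases with their partners), every gene or intronic locus past both thresholds and the largest and smallest change in each group; a few others were named after their values were seen. The members and lists were chosen with earlier results of these data known. Replicates differed by more than counting noise (chi-square per degree of freedom 4.83 to 26.1).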

Additional observations from a re-analysis of the deposited data

How the results depend on the processing

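Scaling mattered most. At the same total, 5 members increased and 15 decreased, and the median of the members was −0.13. Of the other genes 2 increased, and more of them than in the main fit were lower by 1.5-fold or more, among them ERCC3 at −0.65. Over all loci with a symbol, 6.74% increased and 32.2% decreased (median −0.26). With RPL34 the counts were 4 and 25 of 72 members, 0 and 13 other genes, and the median −0.38, against 3.58% and 43.8% of all loci with a symbol (median −0.51). A fold change of 2 left 5 increased and 6 decreased members and 1 and 3 other genes. The shares over all loci at this threshold were not computed, so these counts cannot be read against them. The median was 0.09 in edgeR and at the upper quartile, 0.14 with a minimum of 50 and 0.06 with no minimum, and ranged from 0.08 to 0.14 without 1 library; the minimum of 50 left 1 decreased intronic locus and no minimum gave 5 increased ones. Leaving out a library gave 10 to 12 increased members and 11 decreased ones.

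The sign changed with RPL34 for POLR2B (−0.16), MED12 (−0.48), MED13 (−0.17), MED14 (−0.14), MED20 (−0.41), MED16 (−0.45), POLR2G (−0.45), POLR2F (−0.06), MNAT1 (−0.10), CDK8 (−0.12) and CCNC (−0.17), at the same total for MED12 (−0.23), MED20 (−0.16), MED16 (−0.20) and POLR2G (−0.20), and at the upper quartile for MED12 (−0.01). These are shifts by a constant. Without 1 library, MED12 ranged from −0.02 (DMSO replicate 3 or THZ531 replicate 2 left out) to 0.05, POLR2G from −0.01 to 0.09, GTF2F1 from −0.05 to 0.01 and the change of the TAF1 over TAF1L ratio from −0.86 to 0.11; calls were lost for TAF13 (0.56 without DMSO replicate 1, 0.55 without THZ531 replicate 1), TADA1 (0.55 without THZ531 replicate 1) and GTF2B.

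With the replicate number as a block, 11 members increased and 11 decreased, and no call of the named genes changed. Libraries with the same number did not deviate together (correlations 0.00168, 0.0186 and −0.0393 over 17568 loci). This check cannot show whether they were prepared together. With 3 libraries a group and fewer than 10 reads in DMSO, the size of the MED27 locus's rise cannot be fixed.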
